A study of Sus scrofa with 297 samples.

Results

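The transcripts of 10 genes of mitochondrial fatty acid beta-oxidation were described in pig livers. The genes were taken by name: CPT1A, CPT2 and SLC25A20 of the carnitine shuttle, the acyl-CoA dehydrogenases ACADVL, ACADM and ACADS, the subunits HADHA and HADHB of the trifunctional protein, the thiolase ACAA2, and ETFDH of the electron transfer chain. A probe set was counted for a gene if that gene was its only symbol in the array annotation. This gave 15 probe sets for 10 of the 13755 gene symbols on the array, and 12 of the 15 were among the 24815 transcripts whose signal was high enough to be tested. Where a gene had several probe sets, the 1 with the highest mean signal stood for the gene.

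The livers came from adult German Landrace pigs and were taken at slaughter. RNA of each pig was hybridised to 1 Affymetrix array, and the values are normalised signals on the log2 scale, so that a difference of 1 stands for a ratio of 2. The labels gave an animal number for each pig and, for all but 8 pigs, the loin eye area (LEA), the fat area over the same muscle (FA) and a ratio of both (MFR). There were no treatment groups, and the question was which transcripts vary with each other and with body composition.

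Fatty acids enter the mitochondrial matrix as carnitine esters and are then shortened by repeated rounds of dehydrogenation, hydration, a further dehydrogenation and thiolysis. The electrons of the initial dehydrogenation pass through the electron transfer flavoprotein to the respiratory chain, and the acetyl-CoA released feeds ketone body formation or the citrate cycle. In the liver the pathway is known for its increase during fasting, with PPARA as a main transcriptional activator, and for its inhibition by malonyl-CoA when fatty acids are being made.

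LEA lay between 27.8 and 68.4 cm2 (median 43.3 cm2) and FA between 2.4 and 30 cm2 (median 14.4 cm2). MFR lay between 0.06 and 0.74 (median 0.32). The labels call MFR a meat to fat ratio, but in every pig with traits it equalled FA divided by LEA to within 0.006, so a high MFR stands for more fat. FA and MFR were therefore almost the same measure (Spearman rho = 0.945), while LEA and FA had a rho of -0.182. The median signal of an array lay between 5.58 and 5.78, and the main principal component of the tested transcripts held 27.8% of their variance. Of 10 hepatocyte markers 9 passed the signal filter. ALB, the albumin gene, had a median of 13.95, and AHSG, which encodes fetuin-A, had a median of 3.01 and lay under the filter.

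CPT1A, the liver enzyme that attaches carnitine to long-chain fatty acids and the step at which malonyl-CoA acts, had the widest spread of the 10 genes. Its log2 signal was 7.71 in the lowest liver, 9.46 in the median liver and 11.63 in the highest, a 15.1-fold range with an SD of 0.71. That SD stood at percentile 98.5 among all tested transcripts. CPT2, which returns the acyl group to coenzyme A inside the mitochondrion, ran from 7.79 through a median of 9.50 to 10.63, with an SD of 0.55 at percentile 94.4. SLC25A20, the carrier that exchanges acylcarnitine for carnitine across the inner membrane, ran from 7.78 through 8.63 to 10.01, with an SD of 0.37 at percentile 77.2. All carnitine shuttle genes thus varied more between pigs than most transcripts did.

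The dehydrogenases differed in this respect. ACADVL, which acts on very long acyl chains, had a log2 signal between 8.06 and 11.15 with a median of 9.03, and an SD of 0.37 at percentile 78.2. ACADM, which acts on medium chains, ran from 9.01 through a median of 10.66 to 11.29, with an SD of 0.42 at percentile 84.3. ACADS, which acts on short chains, ran from 10.50 through 11.16 to 11.82, and its SD of 0.20 stood at percentile 11.4, the narrowest spread of the 10 genes. The ACADVL values had a long upper tail (skewness 1.52) and the ACADM values a lower tail (skewness -1.0).

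The genes of the later steps were nearer the middle of all transcripts. HADHA, the subunit with hydratase and dehydrogenase activity, ran from 9.22 through a median of 10.17 to 11.56 (SD 0.27, percentile 52.1). HADHB, the subunit with thiolase activity, ran from 8.38 through 9.41 to 10.04 (SD 0.28, percentile 54.7). The genes of both subunits lie next to each other in the RefSeq annotation of the pig. ACAA2, a matrix thiolase, ran from 10.59 through a median of 12.35 to 12.85 (SD 0.33, percentile 70.2), with a lower tail (skewness -1.58). ETFDH, the oxidoreductase that passes electrons from the flavoprotein to ubiquinone, ran from 8.82 through 9.84 to 10.81 (SD 0.24, percentile 38.9).

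**Figure D1:**
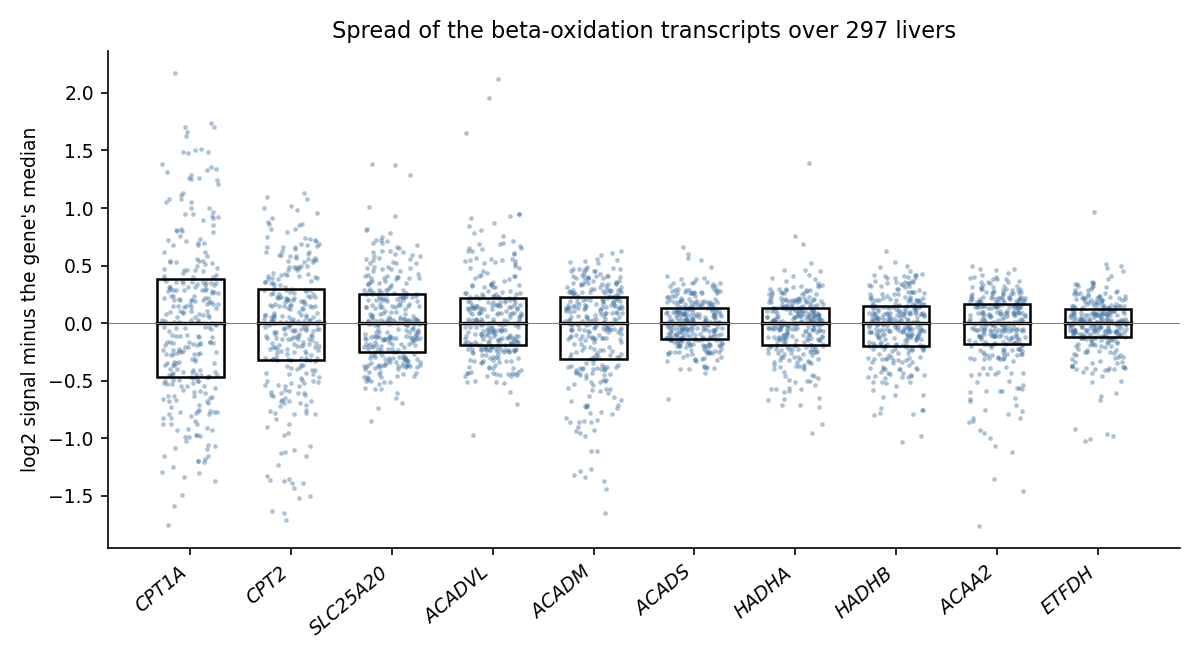
Log2 signal of each gene in all livers, shown as the difference from the gene's own median, with 1 point per pig. Boxes span the quartiles and the line inside is the median. CPT1A has the widest spread (SD 0.71) and ACADS the narrowest (SD 0.20).

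Some pigs stood at the ends of several distributions. The share of all transcripts at an end in the same pigs was not counted, so this need not be particular to the 10 genes. Pig 2594 had the highest signal of CPT1A (11.63), ACADVL (11.15), HADHA (11.56), HADHB (10.04) and ETFDH (10.81) and was among the 10 highest pigs for 8 of the 10 genes. ACADM (10.17) and ACAA2 (11.97) of the same pig were below their medians. Pig 2598 was among the 10 highest for 7 genes and pig 2718 for 5, and these pigs stood next after pig 2594 for ACADVL, at 10.99 and 10.68. In no other pig did ACADVL exceed 9.98. The FA of the same pigs was 10.9, 14.4 and 13.7 cm2, so none of them was at an end of the fat range.

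At the other end, pig 2897 had the lowest signal of ACADM (9.01), HADHA (9.22), HADHB (8.38), ACAA2 (10.59) and ETFDH (8.82). Its CPT1A, at 9.53, lay close to the median. Pig 2933 was among the 10 lowest for 5 genes, with an ACAA2 of 11.28 and an ETFDH of 8.88, again with a CPT1A above the median (9.84). Pig 2836 was the lowest for CPT2 (7.79) and next to the lowest for CPT1A (7.87), while its ACAA2 (12.72) was near the top of its range.

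Probe sets of a gene did not always vary together. CPT1A was represented by 4 probe sets. The ranks of the main probe set over all pigs had a rho of 0.105 with the other tested probe set, and of 0.077 and -0.188 with those under the signal filter. The other tested CPT1A probe set had a narrower spread, from 5.38 through 6.29 to 7.22. ACADVL had 3 probe sets, with a rho of 0.620 between both that were tested and of 0.303 with the one below the filter. The remaining 8 genes had 1 probe set each. Values for CPT1A below therefore rest on its main probe set.

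The co-expression of the 10 genes was then examined over all livers. Of their 45 pairs 34 had a positive and 11 a negative Spearman rho, with a mean of 0.183 and a median of 0.260. Tested against all transcripts from the side of both genes (FDR below 1%), 25 pairs were positively and 5 negatively correlated and 15 did not pass. These counts stand against a high background, since many transcripts of these arrays are correlated. Of all 24814 other transcripts, 31.5% passed in either direction with CPT1A, 47% with CPT2 and 8.26% with SLC25A20. The share was 56.8% with ACADVL, 84.1% with ACADM and 62.2% with ACADS. It was 32% with HADHA, 69.5% with HADHB, 71.7% with ACAA2 and 67.9% with ETFDH. The median rho of a gene with all transcripts lay between -0.234 (ACADM) and 0.117 (ACADS).

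The closest pair was CPT1A and ACADVL. Their rho was 0.629 and their Pearson r 0.675, and both had a permutation p of 1e-05, which is the lowest value possible with 100000 permutations. Leaving out the 2 pigs whose CPT1A was most extreme gave an r of 0.672, and without pigs 2594, 2598 and 2718 the rho was 0.617. Centred within number series, which are sets of pigs whose animal numbers share their 2 leading digits, the rho was 0.543, and it was positive in 9 of 9 series. Among all transcripts ACADVL stood at percentile 99.9 of correlation with CPT1A.

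ACADVL was also correlated with ACADS (rho = 0.555, r = 0.573), HADHA (rho = 0.488, r = 0.535), SLC25A20 (rho = 0.472, r = 0.585) and CPT2 (rho = 0.400, r = 0.375). Each of these pairs had a permutation p of 1e-05 for both coefficients. Within number series the values were 0.491, 0.394, 0.400 and 0.385 in the same order. SLC25A20 is the gene with the lowest background of correlated transcripts, and its rho with ACADS was 0.431 (r = 0.477, 0.379 for rho within series).

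High values also lay among the later steps. HADHB and ETFDH had a rho of 0.570 (r = 0.644, 0.607 without the 2 farthest pigs), HADHA and ETFDH a rho of 0.531 (r = 0.570, 0.514 without them), and ACAA2 and ETFDH a rho of 0.452 (r = 0.618, 0.562 without them). Between HADHA and HADHB, which form 1 enzyme, the rho was 0.464 (r = 0.553, 0.520 without the 2 farthest pigs). The permutation p of these pairs was 1e-05 for both coefficients. Within number series the rho was 0.495, 0.449, 0.512 and 0.465. For ETFDH 8 of its 9 pairs were positive past the threshold, where 67.9% of all transcripts passed in either direction, and the pair with CPT2 (rho = 0.0133) did not pass. For SLC25A20 5 of 9 pairs were positive past it, where 8.26% of all transcripts passed.

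HADHA had a rho of 0.408 with ACADS and of 0.488 with ACADVL, while HADHB had a rho of 0.0047 with ACADS and -0.0231 with ACADVL. After removal of the main component of the arrays these HADHB values were 0.377 and 0.289, and after removal of 5 components 0.286 and 0.104. CPT1A and CPT2, the enzymes at both ends of the shuttle, had a rho of 0.086 (r = 0.103, FDR 0.244 and 0.200 from either side), which did not pass. CPT2 was instead correlated with ACADS (rho = 0.454, r = 0.446).

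ACADM differed from the other dehydrogenases. Its rho was -0.428 with ACADS (r = -0.462), -0.412 with ACADVL (r = -0.402), -0.288 with CPT1A (r = -0.300) and -0.243 with CPT2 (r = -0.247). All 4 pairs passed, where 84.1% of all transcripts passed with ACADM in either direction. With CPT2 the permutation p was 2e-05 for rho and 4e-05 for r, and with the others it was 1e-05. Without the 2 farthest pigs r was -0.494, -0.405, -0.305 and -0.246, and within number series rho was -0.358, -0.367, -0.246 and -0.279. The median rho of ACADM with all transcripts was itself negative (-0.234). Among all transcripts CPT1A stood at percentile 41.94 and CPT2 at 48.94 of correlation with ACADM, so both were near the middle. ACADS stood lower, at 16.44, and so did ACADVL, at 19.01. The fifth negative pair was CPT2 and ACAA2 (rho = -0.219, permutation p = 0.00016). ACADM was positively correlated with HADHB (rho = 0.414), ACAA2 (rho = 0.396) and ETFDH (rho = 0.260).

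The genes also differed in their relation to the main component of the arrays. ACADM had a rho of -0.797 with that component, ACAA2 -0.469, HADHB -0.446 and ETFDH -0.412, while ACADS had 0.497, ACADVL 0.428 and CPT2 0.331. After removal of this component the negative values of ACADM were smaller with ACADS (-0.064) and ACADVL (-0.175) than before, while those with CPT1A (-0.234) and HADHA (-0.169) stayed near their former size, and the value with CPT2 was 0.098. Its positive values turned to -0.022 with HADHB, -0.047 with ACAA2 and -0.236 with ETFDH. The mean over the 45 pairs was then 0.244. After removal of 5 components 43 of the 45 pairs were positive, with a mean of 0.233. The exceptions were CPT1A with ACAA2 (-0.056) and ACADM with ACAA2 (-0.029). The highest values were then ACAA2 and ETFDH (0.500), HADHA and HADHB (0.497) and ACADS and ETFDH (0.466). What the component stands for was not tested.

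**Figure D2:**
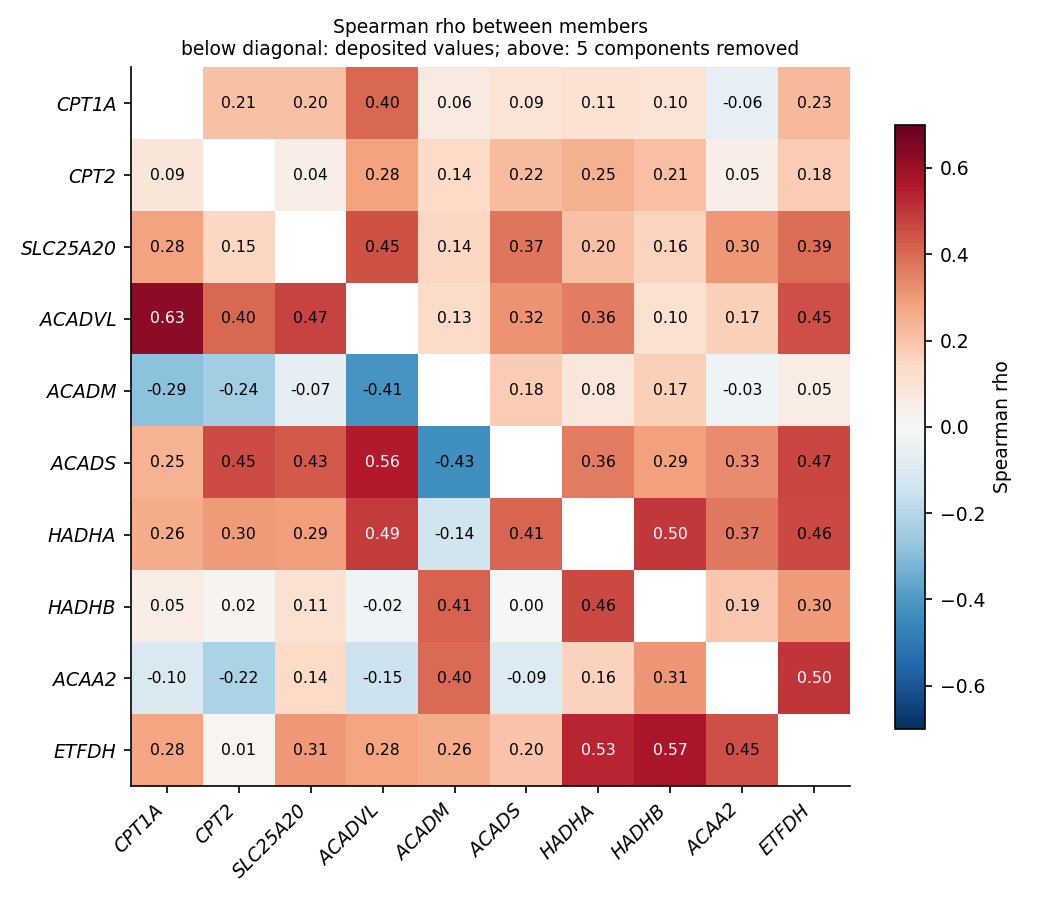
Spearman rho of each pair of genes over all livers. Values below the diagonal are from the deposited signals and values above it follow removal of 5 principal components, where 43 of 45 pairs are positive. Below the diagonal the values of ACADM are negative with CPT1A, CPT2, SLC25A20, ACADVL, ACADS and HADHA.

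Marker genes of other cell types moved with several of the 10 genes. Fewer cells of a type and less RNA per cell cannot be told apart in whole liver. Of 62 marker genes in 9 lists 50 were tested, and the mean rank of each list per pig was compared with the 10 genes. T and NK cell markers (7 of 7 tested) had signals summed on the linear scale between 9.13 and 10.78 in log2 over the pigs. Their rho was -0.512 with ACADM, -0.300 with HADHB, 0.240 with ACADS, 0.233 with CPT1A and 0.216 with ACADVL. Endothelial markers (7 of 8 tested, summed signal between 11.13 and 12.22) had a rho of -0.423 with ACADM, 0.352 with ACADVL, 0.352 with ACADS, 0.345 with HADHA and 0.344 with CPT1A. Hepatocyte markers (9 of 10 tested, summed signal between 16.08 and 16.51) had a rho of 0.243 with ACADM and 0.216 with ACAA2. With all other genes the rho was negative, from -0.325 with ACADS, -0.280 with CPT2 and -0.255 with HADHA to -0.033 with CPT1A. Of the skeletal muscle markers (4 of 6 tested), ACTA1 had a median of 7.03, and MYH1, with a median of 4.75, lay under the signal filter. The mean rank of this list had a rho of -0.527 with ACADM, -0.472 with ETFDH, -0.459 with HADHB and -0.327 with ACAA2. Of the adipose markers (3 of 4 tested), LEP, with a median of 4.54, lay under the signal filter. The mean rank of the adipose list had a rho of -0.522 with ACADM, 0.365 with ACADS, -0.362 with HADHB and 0.321 with ACADVL. Blood and erythroid markers (4 of 5 tested, summed signal between 10.36 and 12.85) had a rho of -0.377 with ACADM, 0.320 with ACADS and 0.267 with ACADVL, and Kupffer cell and macrophage markers (5 of 8 tested, summed signal between 12.12 and 13.08) 0.301 with CPT2 and 0.230 with ACADS. Stellate cell and bile duct markers stayed between -0.195 and 0.0049 with each of the 10 genes. For comparison, ACADM had a median absolute rho of 0.345 with all transcripts, of which 84.1% passed in either direction. Its rho with the main component was -0.797. The part of cell composition in the co-expression was not tested.

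For each gene the transcripts of other genes with the most similar pattern over all pigs were listed. These are extremes chosen from 24814 values. All named here had a permutation p of 1e-05 for rho and for r, which follows from that choice and is no separate support. The nearest to CPT1A were SLC13A5, a citrate transporter of the plasma membrane (rho = 0.763, r = 0.758), MFSD2A, a lysophospholipid transporter (rho = 0.725, r = 0.727), and G6PC, the glucose-releasing phosphatase (rho = 0.722, r = 0.665). The most opposed was GPAM, a mitochondrial acyltransferase at the start of glycerolipid synthesis that uses the same acyl-CoA substrates as CPT1A (rho = -0.798, r = -0.810). GPAM had the same sign in 9 of 9 number series, with a rho of -0.747 within series, an r of -0.806 without the 2 farthest pigs and a rho of -0.433 after removal of 5 components.

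CPT2 was nearest to SHMT2, a mitochondrial serine hydroxymethyltransferase (rho = 0.573, r = 0.574). SLC25A20 was nearest to ARIH2, a ubiquitin ligase (rho = 0.519, r = 0.513), followed by CYP8B1 of bile acid synthesis (rho = 0.476, r = 0.520), and it was most opposed to ACSL4, an acyl-CoA synthetase (rho = -0.391, r = -0.456). ACADVL was nearest to BFAR (rho = 0.737, r = 0.801), followed by AGPAT6, an acyltransferase of glycerolipid synthesis (rho = 0.691), and APOA5, an apolipoprotein (rho = 0.689). Leaving out the 2 farthest pigs gave an r of 0.563 for SHMT2, 0.497 for ARIH2 and 0.766 for BFAR. Within number series the rho was 0.519 for SHMT2, 0.530 for ARIH2 and 0.647 for BFAR.

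ACADM was nearest to CUL5 (rho = 0.833, r = 0.829), followed by DLD, the dihydrolipoamide dehydrogenase of the alpha-keto acid complexes (rho = 0.830, r = 0.861). After removal of 5 components these were 0.247 and 0.203. ACADS was nearest to DENND1A (rho = 0.666, r = 0.698). HADHA was nearest to SEC31A, a coat protein of vesicles from the endoplasmic reticulum (rho = 0.561, r = 0.630), and HADHB to ITPR2, a calcium channel of that organelle (rho = 0.648, r = 0.675). ACAA2 was nearest to PMPCB, a subunit of the mitochondrial processing peptidase (rho = 0.584, r = 0.690), followed by DECR1, the reductase needed for unsaturated fatty acids in the same matrix (rho = 0.574, r = 0.670). ETFDH was nearest to FBXO3 (rho = 0.712, r = 0.758), and HAO2, a peroxisomal oxidase, was also among its 3 nearest (rho = 0.677, r = 0.722). Within number series the rho was 0.799 for CUL5, 0.652 for DENND1A, 0.477 for SEC31A, 0.446 for ITPR2, 0.630 for PMPCB and 0.663 for FBXO3. Without the 2 farthest pigs r was 0.832 for CUL5, 0.708 for DENND1A, 0.592 for SEC31A, 0.657 for ITPR2, 0.667 for PMPCB and 0.741 for FBXO3.

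A score over the 10 genes, the mean of their standardised ranks, described how well each followed the others. The rho of a gene with the score of the other 9 was highest for ETFDH (0.636) and HADHA (0.607), followed by ACADVL (0.477), SLC25A20 (0.444), HADHB (0.396), ACADS (0.377), CPT1A (0.309), CPT2 (0.202), ACAA2 (0.184) and ACADM (-0.083). The gene symbols nearest to the score were TMEM170A (0.582), AHCYL1 (0.581), SLC4A4 (0.580), TBRG1 (0.570), SEC31A (0.570), CTPS2 (0.564), RDH11 (0.563), DCUN1D3 (0.560), PPP2R1B (0.554) and LCLAT1 (0.547). Among them SLC4A4 encodes a bicarbonate cotransporter and RDH11 a retinol dehydrogenase. The most opposed were TSC22D3, a glucocorticoid-induced gene (-0.465), CACNA1H (-0.456), MAP3K4 (-0.450), PRRX2 (-0.445) and OTUD5 (-0.437). Within number series the nearest lay between 0.474 (LCLAT1) and 0.568 (AHCYL1) and the most opposed between -0.375 (TSC22D3) and -0.337 (PRRX2). After removal of 5 components these ranges were 0.320 (DCUN1D3) to 0.472 (AHCYL1) and -0.155 (TSC22D3) to -0.098 (CACNA1H).

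Regulators and neighbouring pathways were compared with the 10 genes from listed genes of each pathway. PPARA, tested from the side of each gene, passed with 9 of the 10, where between 8.26% (SLC25A20) and 84.1% (ACADM) of all transcripts passed with a given gene. It was positive with ACADVL (rho = 0.648), CPT1A (0.540), ACADS (0.424), HADHA (0.370), SLC25A20 (0.365), CPT2 (0.322) and ETFDH (0.297), negative with ACADM (-0.337) and ACAA2 (-0.179), and did not pass with HADHB (0.092, FDR 0.138). Within number series the values were 0.600, 0.444, 0.409, 0.329, 0.331, 0.309 and 0.224 for the positive genes and -0.332 and -0.171 for the negative ones. After removal of 5 components PPARA had a rho of 0.095 with ACADM and 0.019 with ACAA2, against 0.456 with ACADVL and 0.446 with CPT1A. BDH1, the ketone body dehydrogenase, had its highest values with ACADVL (0.656) and ACADS (0.607). Of 8 ketogenesis and fasting genes 3 were positive and 2 negative with CPT1A past the threshold, where 31.5% of all transcripts passed in either direction. The median rho with CPT1A was 0.100. The values ran from -0.298 for PDK4 to 0.598 for PLIN2, which coats lipid droplets, and the latter was 0.114 after removal of 5 components. With the other beta-oxidation genes between 1 and 5 of the same 8 were positive and between 0 and 4 negative past the threshold. MLYCD, which removes malonyl-CoA, was correlated with ACADVL (0.621) and CPT1A (0.470), and the values were 0.405 and 0.297 after removal of 5 components.

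In the deposited signals, the enzymes at both ends of the carnitine shuttle had opposite signs with genes of fatty acid synthesis. CPT1A was negatively correlated with 8 of 8 tested synthesis genes, with a median rho of -0.359. The values reached -0.519 for SCD, the stearoyl-CoA desaturase, -0.476 for ACSS2, -0.426 for ACACA, the carboxylase that makes malonyl-CoA, and -0.319 for FASN, the fatty acid synthase. Within number series these were -0.472, -0.407, -0.380 and -0.321. CPT2 was positively correlated with 7 of the same 8 genes, with a median rho of 0.224, the highest being SREBF1 (0.325), a transcription factor of lipid synthesis, and FASN (0.318). Of all transcripts 31.5% passed in either direction with CPT1A and 47% with CPT2. ETFDH was negative with 4 of 8 past the threshold (67.9% of all transcripts passed with it in either direction), ACAA2 with 4 (71.7%), ACADVL with 3 (56.8%), HADHB with 2 (69.5%) and HADHA with 1 (32%), and ACADM (84.1%) and ACADS (62.2%) were positive with 2 each, each a lower share than that of all transcripts. The values of SLC25A20 lay between -0.176 and -0.015. After removal of 5 components the values of CPT1A lay between -0.188 (ACSS2) and 0.113 (MLXIPL), positive for MLXIPL and ME1 and negative for the other 6 genes. Those of CPT2 lay between -0.141 (ACLY) and 0.172 (ME1), with 0.078 for SREBF1 and 0.048 for FASN.

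Other enzymes of fatty acid metabolism differed in the genes they were closest to. With ACADM the rho was 0.802 for ACSM3, a medium-chain acyl-CoA synthetase, 0.769 for SCP2, a peroxisomal thiolase and lipid carrier, and 0.732 for DECR1, and these were 0.266, 0.188 and 0.125 after removal of 5 components. ETFA, a subunit of the flavoprotein that hands electrons to ETFDH, had a rho of -0.494 with ACADVL and -0.449 with CPT1A, and both turned slightly positive after removal of 5 components (0.043 and 0.106). ACAD9 was correlated with ACADS (0.572), and ECHS1, the enoyl-CoA hydratase, with CPT2 (0.446). PDK4, an inhibitor of pyruvate oxidation, was positive with ACADM (0.660) and negative with ACADS (-0.421) and CPT1A (-0.298). After removal of 5 components PDK4 had 0.177, -0.032 and -0.080 with these genes, ACAD9 0.212 with ACADS and ECHS1 0.122 with CPT2.

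The levels were then compared with LEA, FA and MFR over the pigs with these traits, which made 30 relations for the 10 genes. None of the 10 genes passed an FDR of 1% by Spearman correlation with LEA, FA or MFR, and regression with limma called 0 of 10 for each trait as well. Over all tested transcripts 0.822% were called for LEA (0.508% positive, 0.314% negative), 0.33% for FA (0.189% and 0.141%) and 0.193% for MFR (0.113% and 0.0806%). At an unadjusted p below 0.05 there were 2 genes for LEA, 3 for FA and 1 for MFR, where 21.8%, 11.1% and 8.63% of all transcripts reached this level. Transcripts called by the FDR had a rho of at least 0.230 in size for LEA, 0.242 for FA and 0.248 for MFR. The median rho of the 10 genes was -0.033 for LEA, 0.0049 for FA and -0.0070 for MFR, beside -0.0127, -0.0055 and 0.00014 for all transcripts.

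**Figure D3:**
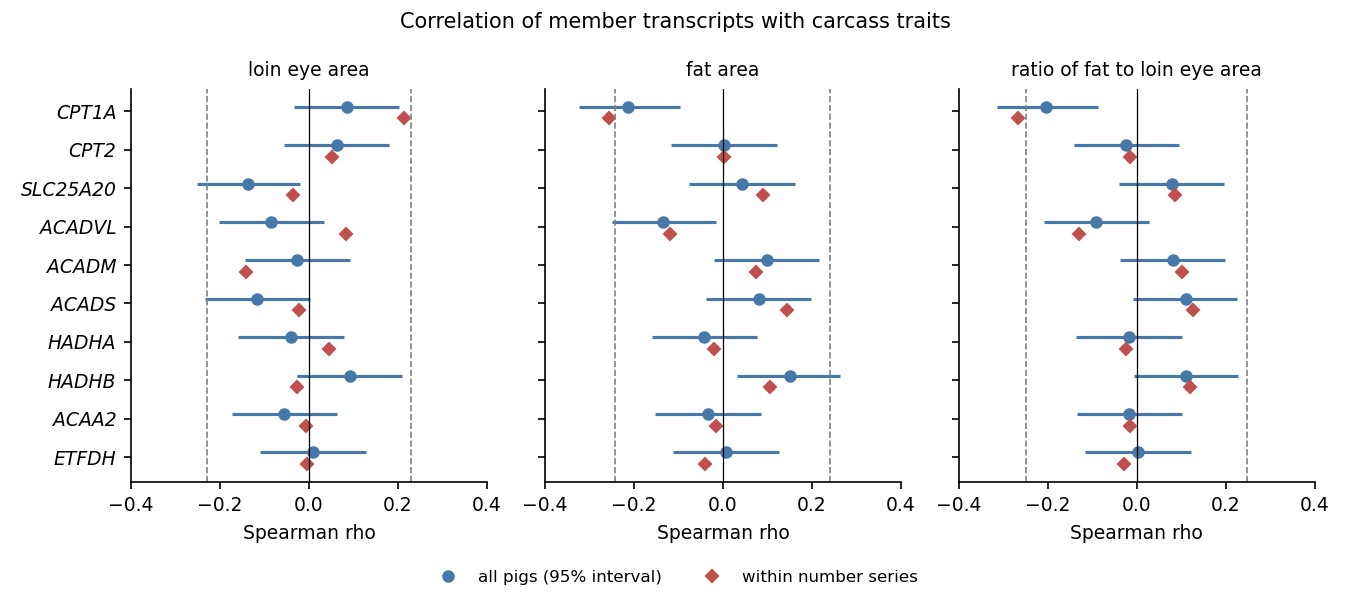
Spearman rho of each gene with LEA, FA and MFR in the pigs with traits. Circles with bars are the pooled values with 95% intervals, diamonds are values within number series, and dashed lines mark the smallest rho called among all transcripts. CPT1A lies nearest the dashed line for FA (rho = -0.213) and for MFR (rho = -0.203).

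CPT1A had the largest value with FA. In the 75 pigs with the least fat (FA up to 10.6 cm2) its log2 signal ran from 7.87 through a median of 9.63 to 11.20. In the 75 pigs with the most fat (FA from 17.3 cm2) it ran from 7.71 through 9.20 to 10.75. The fatter pigs had the lower median, and both sets overlapped over most of their range. Over all pigs the rho was -0.213 (95% interval -0.324 to -0.097, permutation p = 0.00027) and r was -0.205 (permutation p = 0.00051), with an FDR of 0.0347 over all transcripts. The slope was -0.28 ± 0.08 (SE) on the log2 scale per 10 cm2 of fat area. Leaving out the 2 pigs whose FA was most extreme gave an r of -0.209, and without pigs 2594, 2598 and 2718 the rho was -0.210.

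Within number series the CPT1A value passed the threshold, with a rho of -0.257 (FDR 0.0042) and the same sign in 8 of 9 series. With MFR the pooled rho was -0.203 (permutation p = 0.00052, FDR 0.0706), and r was -0.203 (permutation p = 0.00049) and -0.205 without the 2 farthest pigs. Within series the MFR value was -0.268 (FDR 0.0021), again with the same sign in 8 of 9 series. When the ranks were adjusted for the mean rank of 8 X-linked genes, the FA value was -0.155 (FDR 0.0419), and after removal of 5 components it was -0.131 (FDR 0.342). The other tested CPT1A probe set had a rho of 0.069 with FA (FDR 0.754), so the value was not shared between the probe sets. Cell type markers had a rho between -0.138 (T and NK cells) and 0.019 (bile duct) with FA, and their part in the CPT1A value was not tested.

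**Figure D4:**
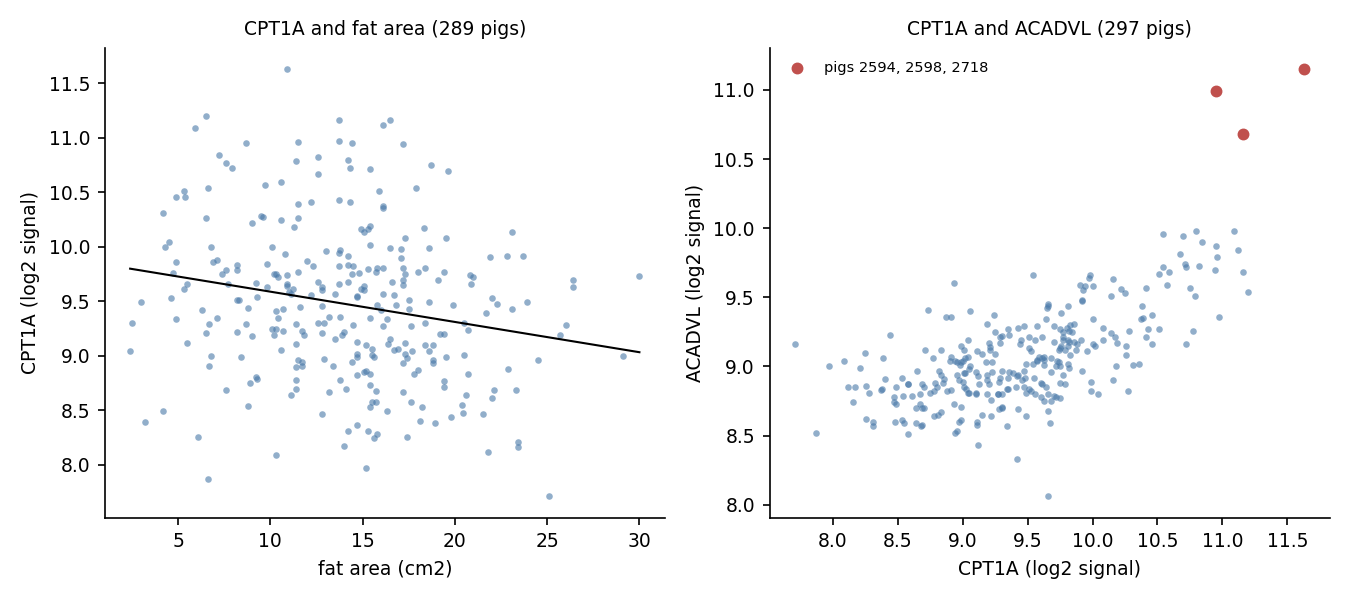
Log2 signal of CPT1A against fat area in the pigs with traits, with the least-squares line (left), and against ACADVL in all pigs (right). The points scatter widely around the falling line on the left (rho = -0.213), and the pigs 2594, 2598 and 2718 stand above all others in ACADVL on the right (rho = 0.629 with and 0.617 without them).

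The remaining values with FA were smaller. ACADVL had a rho of -0.134 (r = -0.136, permutation p = 0.0223 and 0.0215, FDR 0.319), and HADHB had a rho of 0.150 (r = 0.125, permutation p = 0.0107 and 0.0332, FDR 0.228). HADHB ran from 8.43 through 9.34 to 9.82 in the 75 leanest pigs and from 8.38 through 9.46 to 9.84 in the 75 fattest, with almost complete overlap. The values within series were -0.120 for ACADVL and 0.107 for HADHB, and r without the 2 farthest pigs was -0.133 and 0.109. When adjusted for the X-linked genes, HADHB (rho = 0.242, FDR 0.0035) and ACADM (rho = 0.223, FDR 0.0059) passed. That adjustment raised the share of all transcripts called with FA from 0.33% to 4.99%. The other genes had a pooled rho between -0.042 (HADHA) and 0.099 (ACADM) with FA.

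With LEA the pooled values were small. SLC25A20 had a rho of -0.138 (r = -0.146, permutation p = 0.0183 and 0.0131, FDR 0.143), -0.035 within number series. In the 74 pigs with the smallest LEA (up to 39.7 cm2) it ran from 7.78 through 8.67 to 9.45, and in the 73 with the largest (from 47.6 cm2) from 7.98 through 8.51 to 9.35. ACADS had a rho of -0.117 (r = -0.148, permutation p = 0.0471 and 0.0125, FDR 0.221), -0.021 within series. Without the 2 farthest pigs r was -0.112 for SLC25A20 and -0.124 for ACADS. The second tested probe set of ACADVL had a rho of -0.203 with LEA (FDR 0.0261), while the main probe set had -0.086. CPT1A had a pooled rho of 0.087 with LEA, 0.213 within series (FDR 0.0914) and 0.271 after removal of 5 components (FDR 0.001), where it passed. ACADM had -0.026 with LEA and -0.204 after that removal (FDR 0.0238), which did not pass.

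Genes around the pathway were read from the same test. Over all transcripts 0.822% passed with LEA, 0.33% with FA and 0.193% with MFR. An unadjusted p below 0.05 was reached by 21.8%, 11.1% and 8.63% in the same order. Counts at that unadjusted level are given for the lists in which 0 genes passed. Of 12 genes of fatty acid uptake, activation and carnitine metabolism 0 passed with any trait by Spearman correlation, with 2 at an unadjusted p below 0.05 for LEA (1 in each direction) and 0 for FA and MFR. Of 13 other matrix enzymes 1 passed, ECHS1 with LEA (rho = 0.236, FDR 0.0079, 0.168 within series). Of 12 regulators 2 passed with LEA, both negatively, the corepressor NCOR1 (-0.256, -0.058 within series) and LPIN1, a phosphatidate phosphatase and coactivator (-0.248, -0.133 within series). Of 13 peroxisomal genes PHYH, which starts the oxidation of branched-chain fatty acids, passed with FA (rho = 0.321, 0.276 within series) and MFR (0.263). Of 8 fatty acid synthesis genes FASN passed with FA (rho = 0.262, FDR 0.0044, 0.243 within series) and MLXIPL, a glucose-responsive transcription factor, with LEA (0.266, 0.151 within series). All 8 synthesis genes had a positive rho with FA, with a median of 0.185, while CPT1A had -0.213. Of 13 respiratory chain genes COX6C passed with LEA (-0.267, -0.078 within series). Of 8 ketogenesis and fasting genes 0 passed by Spearman correlation, with 1, 2 and 2 at an unadjusted p below 0.05 for LEA, FA and MFR, and TXNIP came closest (rho = -0.240 with FA, FDR 0.011). Of 10 citrate cycle genes 0 passed, with 3, 2 and 1 at that level.

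The levels also differed between number series, whose meaning the labels do not give. The share of rank variance between the 9 series was 32.9% for ACADVL, 30.7% for HADHB and 26.6% for HADHA, against a median of 14.5% over all transcripts. It was 22.7% for ACADM, 22.4% for ETFDH, 21.5% for CPT1A, 17.8% for CPT2, 14.4% for ACADS and 11.5% for SLC25A20. ACAA2 had the lowest share, 3.18%, at percentile 1.71 of all transcripts (permutation p = 0.310). The permutation p was 4e-05 for SLC25A20 and 1e-05 for the other 8 genes.

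CPT1A ran from 8.87 through 10.28 to 11.16 in series 27 (n = 20) and from 8.17 through 8.97 to 10.26 in series 22 (n = 19), so that the median of series 27 was above the highest pig of series 22. By median, ACADM was lowest in series 26 (n = 9), from 9.55 through 10.05 to 10.38, and highest in series 22, from 10.41 through 10.91 to 11.22. By median, HADHB was highest in series 21 (n = 29), from 9.15 through 9.63 to 9.94, and lowest in series 28 (n = 46), from 8.38 through 9.23 to 9.62. For each gene these series were picked by the same values. The share of all transcripts that differ as much between their extreme series was not counted. Series 28 had lower medians than the whole set for CPT1A, CPT2, SLC25A20, ACADVL, ACADS, HADHA, HADHB and ETFDH, and slightly higher ones for ACADM and ACAA2. Batch and pigs of a series cannot be told apart.

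**Figure D5:**
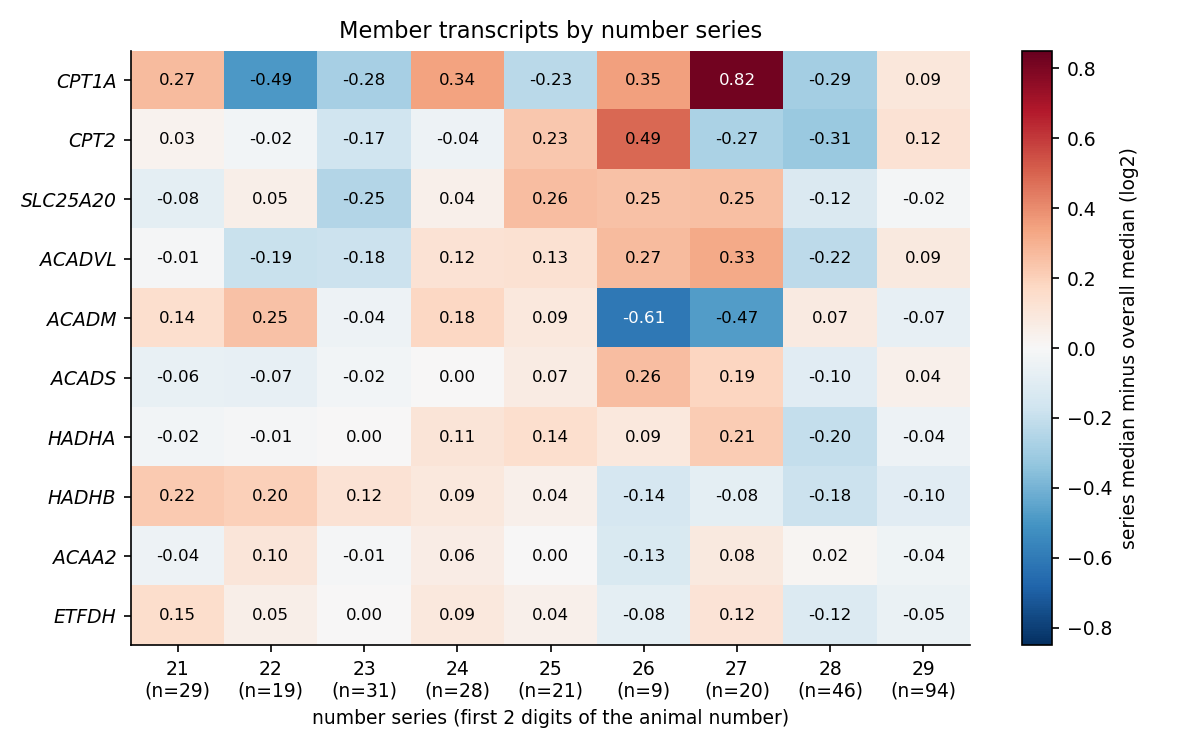
Median log2 signal of each gene in each number series minus its median over all pigs, with the number of pigs in each series. CPT1A is highest in series 27 and lowest in series 22, ACADM is lowest in series 26 and 27, and ACAA2 stays near its overall median.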

How the data were processed

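RNA from 297 pig livers was measured on Affymetrix Snowball arrays, 1 array per pig. Traits were given for 289 pigs. Leaving out pigs 2594, 2598 and 2718 left 294 pigs, of which 286 had traits. The deposited values are log2 signals made by the authors with the robust multichip average over all arrays in Expression Console, per the study's methods. Of 47845 probe sets 123 controls were left out, and the upper 52% by the signal that 80% of pigs exceeded (5.33 or more) were tested, in place of the detection calls of the study. Sex, carcass weight and genotypes were not used here, so the study's residuals were not formed. Spearman p-values came from the t distribution, with Benjamini-Hochberg adjustment over all 24815 transcripts and calls at an FDR of 1%. Permutation tests had 100000 draws. Those of correlations were two-sided, and that of the variance between number series counted only shares at least as large as the observed one. Intervals of rho are 95% Fisher intervals. Alternatives were Pearson correlation, ranks centred within number series, 5 components removed, an X-linked score as a covariate, 2 pigs left out, odd (139) or even (150) animal numbers, all probe sets, the upper part of mean signal, and limma. Tools were Python 3.11.15, numpy 2.4.6, scipy 1.17.1, pandas 2.3.3, R 4.3.3 and limma 3.58.1. The correlation fit was tested on simulated data, in which a known rho was added to shuffled values. An added rho of 0.2 was called in 22.4% of cases for LEA, 16.4% for FA and 14.8% for MFR. For an added rho of 0.3 the shares were 76.8%, 75.2% and 88.8%. Relations of the size of 0.2 would thus mostly go uncalled.

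The members and the gene lists were chosen with earlier results of these data known. Named genes are all members, the genes nearest to each member and to their score, and listed pathway genes that passed with a trait or had the largest rho of their list, and further list genes were named after their values were seen. Symbols came from the platform annotation, and 26426 probe sets had a single symbol. Each pig is a separate animal. Arrays have no read depth, and their number limits the precision.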

Additional observations from a re-analysis of the deposited data

How the results depend on the processing

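The 10 genes remained uncalled with LEA, FA and MFR under Pearson correlation, limma, all probe sets, the upper part of mean signal, odd or even animal numbers and without the 2 farthest pigs. The exceptions were 1 gene (CPT1A) with FA and 1 (CPT1A) with MFR when ranks were centred within number series, 1 (CPT1A) with LEA after removal of 5 components, and 2 (ACADM and HADHB) with FA when adjusted for the X-linked genes. The share of transcripts called with LEA was 0.822% and became 1.54% with Pearson correlation, 1.52% with limma and 0.0201% within number series. With FA it was 0.33% and became 0.218% with Pearson correlation, 0.576% within series and 4.99% with the X-linked genes, and with MFR it was 0.193% and became 0.524% within series and 0.705% after removal of 5 components. With odd numbers alone, on fewer pigs, it was 0% for LEA, 0.0121% for FA and 0.00403% for MFR, and with even numbers alone 0%, 0.00806% and 0.00403%. The cause of the other changes was not tested. Of 240 values of a gene and a trait 28 changed sign, and none of these 28 exceeded 0.092 in size beforehand. Within series they were 0.0829 for ACADVL, 0.0454 for HADHA, -0.0278 for HADHB and -0.0040 for ETFDH with LEA, and for ETFDH -0.0400 with FA and -0.0292 with MFR. With Pearson correlation they were 0.0247 for ACADM with LEA, -0.0143 for CPT2 with FA and 0.00085 for ACAA2 with MFR. After removal of 5 components they were -0.0256 for HADHB and -0.120 for ETFDH with LEA, -0.0598 for CPT2 and 0.0150 for ACAA2 with FA, and 0.0495 for ACAA2 with MFR. With the X-linked genes they were -0.0622 for ETFDH with LEA, -0.0944 for CPT2, -0.0196 for ACADS and 0.0474 for ACAA2 with FA, and 0.0760 for ACAA2 with MFR. Without the 2 farthest pigs ETFDH had -0.0063 with FA and -0.0147 with MFR. In odd numbers HADHA had 0.0188 with LEA and CPT2 -0.0078 with FA, and in even numbers ETFDH had -0.0060 with LEA, -0.0447 with FA and -0.0390 with MFR, SLC25A20 -0.0254 with FA and CPT2 0.00081 with MFR. The mean pairwise rho of the 10 genes was 0.183 and lay between 0.168 and 0.233 under Pearson correlation, centring within series, removal of 5 components, the X-linked genes, odd numbers, even numbers and the mean of all probe sets, within the SD of 0.054 over number series. Chosen after seeing the data were removal of 1 component (0.244) and leaving out the 3 pigs high in several genes (0.178) or the 2 pigs low in several (0.177). No paired analysis was possible because the pigs form a single group. A signal near background bounds what a probe set can show.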
